A study of Mus musculus with 115 samples.

Results

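All Ant1-null hearts of the series were set against all wild type hearts, to find the changes in heart RNA that every null group shared, small ones included. The members were chosen by genotype label, except that 2 wild type libraries (80a and 80b), whose vector label and title code differ, were left out, while 2 null hearts with such a mismatch (61 and 91) were kept. They were 15 Ant1-null and 7 wild type hearts, together the 22 hearts of the series that the labels place in a group. The mice were C57BL/6JEiJ, C57BL/6JEiJ Ant1-/-, or C57BL/6JEiJ Ant1-/- with the ND6 P25L change in mitochondrial DNA (ND6P25L in the labels). Every heart had received 2.5e+11 vector genomes by pericardial injection of an AAV2/9 virus in which Des, the promoter of the muscle gene desmin, stands before Gfp alone (AAV2/9Des-Gfp, the control vector) or before Gfp and mouse Ant1 (AAV2/9Des-Gfp-mAnt1, the Ant1 vector). No uninjected heart entered the comparison, so wild type and null hearts share the injection and Gfp. Wild type hearts were 4 with the control vector and 3 with the Ant1 vector. Null hearts without the ND6 change were 3 with the control vector and 4 with the Ant1 vector. Null hearts with the ND6 change were 3 with each vector, plus 2 (hearts 61 and 91) whose vector label reads Gfp only while their title carries the code of the Ant1 vector. The series covers several times after injection, but no heart carries a time or an age, so age could differ between the genotypes and cannot be told apart from them.

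Ant1, encoded by Slc25a4, is the adenine nucleotide translocator of heart and skeletal muscle. It sits in the inner mitochondrial membrane and exchanges ATP made in the matrix for ADP from the cytosol. Mice without it develop a mitochondrial muscle and heart disease with many, poorly coupled mitochondria. The ND6 gene lies on mitochondrial DNA, and its protein is part of the membrane arm of complex I.

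The RNA was read as amplicon counts, from 1 amplicon for each of 23930 gene symbols. A heart was covered by 2 to 8 libraries, whose counts were summed to between 16827518 and 54779297 per heart, and levels are given as CPM, counts scaled to a common library size. The number in a sample title was read as the heart, which is an interpretation, and nothing states that the hearts came from separate litters or days, so p-values measure only the spread between these hearts. The libraries were deposited in tables of 8, and tables linked by shared hearts form 6 sets. Of these sets 3 hold both genotypes, with all 7 wild type but only 5 null hearts, and 3 hold null hearts only. Genotype is therefore partly tied to the library table, and the main results are given beside a fit with the table set as a covariate. Slc25a4 (chromosome 8, 46207168 to 46211062, GRCm38) stood at 8464 to 11380 CPM (median 10258) in wild type and at 0.219 to 241 CPM (median 55.6) in null hearts. Heart 8, labelled Ant1 vector, held 0.732 CPM, and hearts 61 and 91, labelled Gfp only, held 169 and 151 CPM, which goes against the 3 vector labels. The genotype labels and the comparison of all null hearts do not rest on these. Where the amplicon lies relative to the deletion is not stated, so these values check the labels only in part. Cardiomyocyte markers summed to 96132 to 115450 CPM in wild type and 105326 to 121996 CPM in null hearts. Wild type heart 70 stood apart with 1784 CPM of lung markers, against at most 229 CPM in any null heart (heart 22, Ant1 vector), and wild type heart 23 with 267 CPM of liver markers. Counts were therefore repeated without these 3 hearts.

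Null and wild type hearts differed widely, but mostly by small steps. Of 15403 genes tested 4825 passed the threshold (31.3%; edgeR quasi-likelihood test, Benjamini-Hochberg adjusted p under 0.05, equal weight to each null and each wild type group). Of these, 2474 were higher (16.1%) and 2351 lower (15.3%) in null hearts, and these shares are the background for the counts of list members given later. Most of the differences, 3747 genes or 77.7% of those past the threshold, were under 1.5-fold, and 428 reached 2-fold. With library totals as the only scaling the split was 1996 higher and 2842 lower. With the table set as a covariate 3095 genes passed (20.1%), 1674 higher and 1421 lower. Of the 4825 genes 2523 passed there in the same direction and 23 changed sign. Without the 3 hearts high in lung or liver markers 4005 of 15171 genes tested passed, 2062 higher and 1943 lower.

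The strictest form of a shared change asked that a gene pass the threshold, that all 15 null hearts lie on 1 side of all 7 wild type hearts, and that each of the 5 null groups move the same way. Such genes are called separated below, and 540 of the 15403 tested qualified (3.51%), 358 of them higher (2.32%) and 182 lower (1.18%) in null hearts. Among the separated genes 259 differed by less than 1.5-fold (1.68% of genes tested), 185 higher and 74 lower. Of the 540, which were chosen on these same hearts, 532 also passed with the table set as a covariate and 0 changed direction there. In a test of differences among the 5 null groups 42 of the 540 passed, against 1229 of all genes tested (7.98%). Missing that threshold does not show that the null groups were alike.

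The small shared rises that the naming rule selected include genes of protein turnover, mitochondrial import and glycogen. Psmd8, a lid subunit of the proteasome's regulatory particle, was at 172.5 to 205.3 CPM (median 188) in wild type and at 245 to 318 CPM (median 275) in null hearts. The lowest null heart thus lay above the highest wild type heart, and the rise was 1.47-fold (log2 difference 0.56 ± 0.04, SE; edgeR adjusted p = 7.81e-10). Grpel1, which recharges the Hsp70 motor that pulls proteins into the mitochondrial matrix, went from 115 to 143 CPM (median 129) to 168 to 213 CPM (median 193), 1.46-fold (edgeR adjusted p = 3.41e-08). Gbe1, the glycogen branching enzyme, showed little spread in wild type hearts, 50.7 to 54.6 CPM, and stood at 66.3 to 84.7 CPM in null hearts, 1.37-fold higher (edgeR adjusted p = 5.36e-08). Supv3l1, an RNA helicase that clears mitochondrial transcripts, ran from 39.5 to 44.3 CPM in wild type and from 52.7 to 72.9 CPM in null hearts (1.38-fold). Pex19, which brings membrane proteins to peroxisomes, ran from 146 to 167 and from 190 to 260 CPM (1.37-fold).

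The other rises that the naming rule selected were of the same size. The spliceosomal helicase gene Ddx23 rose 1.43-fold, from at most 98.9 CPM in wild type to at least 114 CPM in null hearts. Pcyt2 and Agpat2, which make phospholipid precursors, rose 1.44-fold and 1.47-fold. Def8 rose 1.47-fold and Slc35f6 1.35-fold. Across these 10 genes the log2 difference from wild type of single null groups ran from 0.31 to 0.80. That each is above 0 follows from the choice of separated genes.

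The shared falls of this size include genes of natriuretic peptide processing, Wnt secretion, TGF beta signalling and the actin skeleton. Corin, the protease that cuts the atrial natriuretic peptide precursor into its active form, was at 225 to 274 CPM (median 263) in wild type and at 147.7 to 205.4 CPM (median 176) in null hearts. It fell by 0.55 ± 0.06 (SE) on the log2 scale (1.46-fold; edgeR adjusted p = 1.53e-07), while its substrate's gene Nppa was at 2995 to 4802 CPM in wild type and 1072 to 4358 CPM in null hearts and did not pass (edgeR adjusted p = 0.689). The lowest Nppa value is that of null heart 5, which was low in atrial markers, and the next lowest null heart held 2717 CPM. Pkig, an inhibitor of protein kinase A, stood at 274 to 342 CPM in wild type and within 188 to 219 CPM in all 15 null hearts, 1.46-fold lower (edgeR adjusted p = 6.11e-09). Its 5 null groups lay close together, with log2 differences from wild type between -0.50 and -0.59. Wls, the carrier that Wnt proteins need for secretion, fell 1.42-fold, from at least 106 CPM to at most 97.8 CPM. Tgfbr1, the type I TGF beta receptor, was at 16.7 to 21.8 CPM in wild type and 10.3 to 15.8 CPM in null hearts, a log2 difference of -0.58 ± 0.06 (SE).

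Gsn, which encodes the actin-severing protein gelsolin and is also strong in fibroblasts, fell 1.41-fold, from 888 to 1108 CPM to 561 to 832 CPM (edgeR adjusted p = 1.65e-08). Plat, the tissue plasminogen activator, fell 1.40-fold, and the Src family kinase gene Yes1 1.43-fold. Ift81, part of the transport machinery of cilia, fell 1.49-fold, from 52.1 to 58.2 CPM to 31.2 to 43.4 CPM. Inafm2 fell 1.48-fold and the organic anion transporter gene Slco3a1 1.49-fold. Inafm2 also differed among the null groups (edgeR adjusted p = 0.00295), with log2 differences from wild type between -0.27 and -0.78. Of the genes above, Gsn, Slco3a1 and Tgfbr1 among the falls and Psmd8, Agpat2, Pex19 and Slc35f6 among the rises passed that test too, so the size of their change was not the same in every null group.

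**Figure D1:**
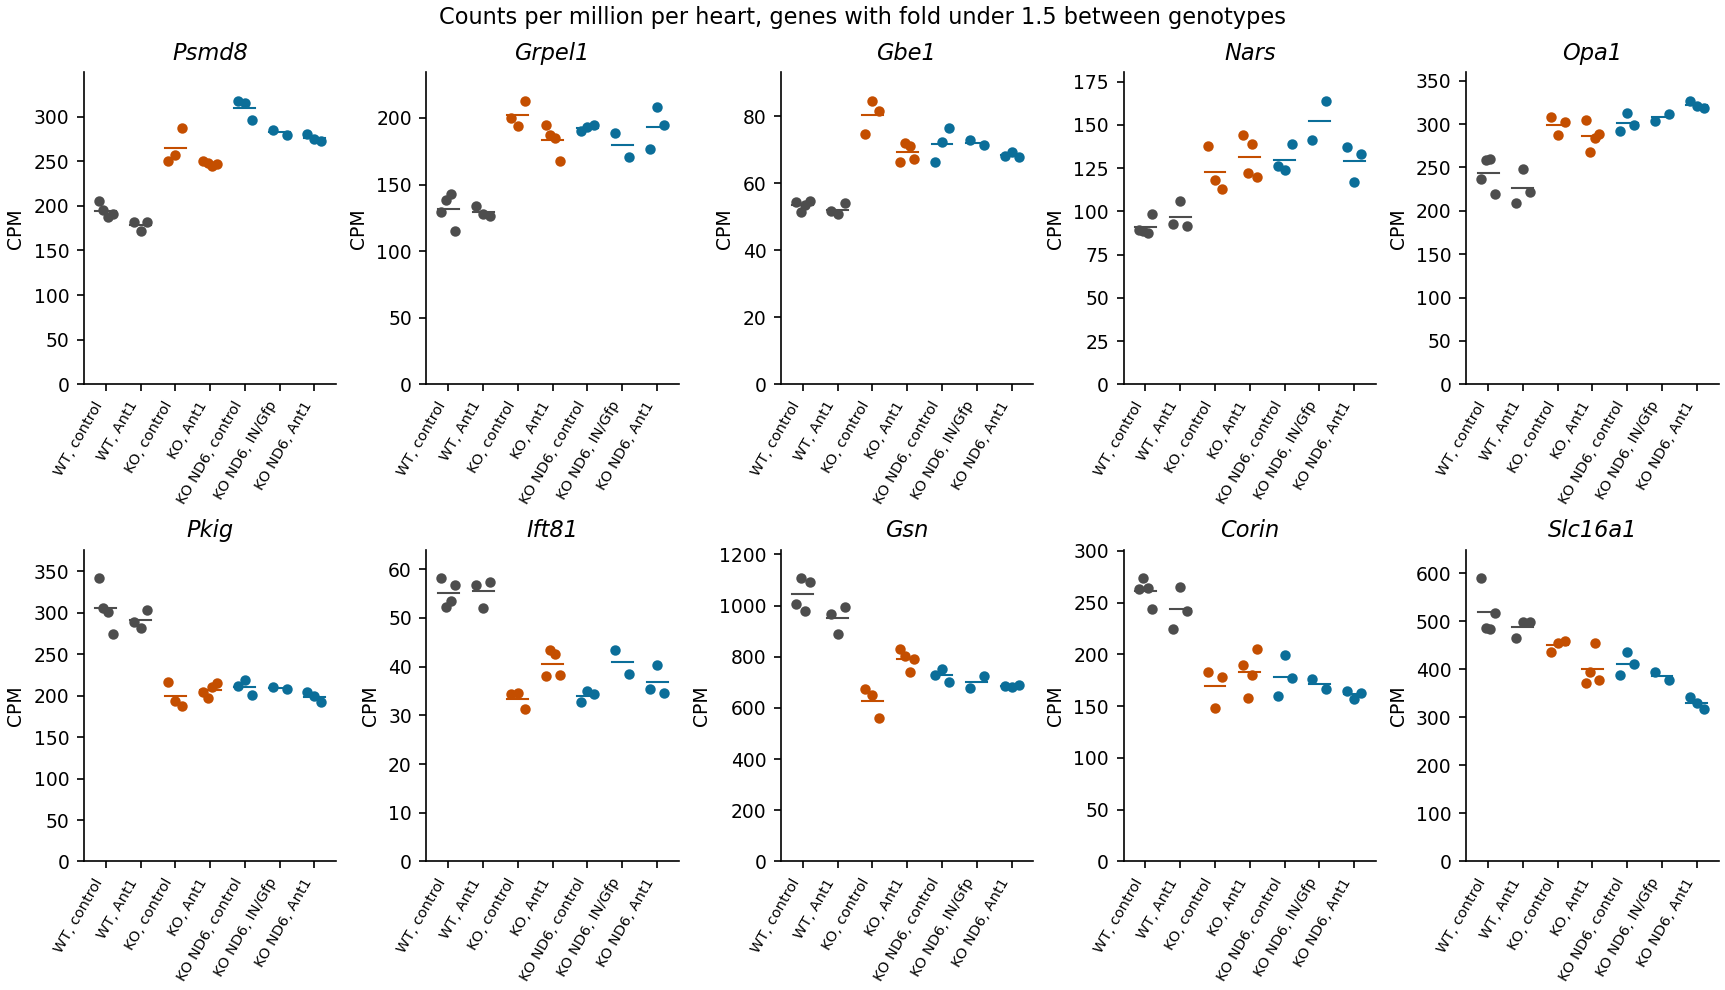
CPM (y axis, linear from 0) of 10 genes in each of the 22 hearts, by genotype and vector (x axis; KO is Ant1-/-, KO ND6 is Ant1-/- with ND6 P25L, IN/Gfp marks hearts 61 and 91). Points are hearts, bars are group means, and in each panel all 15 null hearts lie on 1 side of all 7 wild type hearts, as for Gbe1 at 66.3 to 84.7 against 50.7 to 54.6 CPM.

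Within the fit of all 22 hearts, null and wild type hearts were also compared under each vector. The 2 contrasts use different hearts and library tables but share the estimate of the spread. Under the control vector 2770 genes passed (18%; 9.11% higher, 8.87% lower) and under the Ant1 vector 2806 (18.2%; 9.63% higher, 8.58% lower). Hearts 61 and 91 enter neither of these, and heart 8 stays with the Ant1 vector hearts as labelled. Fitted alone, the control vector hearts gave 3106 genes and the Ant1 vector hearts 1824. In the joint fit 1338 passed in both and in the same direction, 804 higher and 534 lower in null hearts, which is 48.3% of the control vector and 47.7% of the Ant1 vector genes. Another 7 passed in both in opposite directions. Of the 2770 genes 89.4% had the same sign under the Ant1 vector, and of the 2806 genes 90.7% under the control vector, against 68.5% of all genes tested. Across genes, which are not independent replicates, the log2 changes correlated with a Pearson r of 0.328 and a Spearman rho of 0.441. The difference between the vectors itself passed for 16 genes (0.104%), and Slc25a4 was the 1 separated gene among them.

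**Figure D2:**
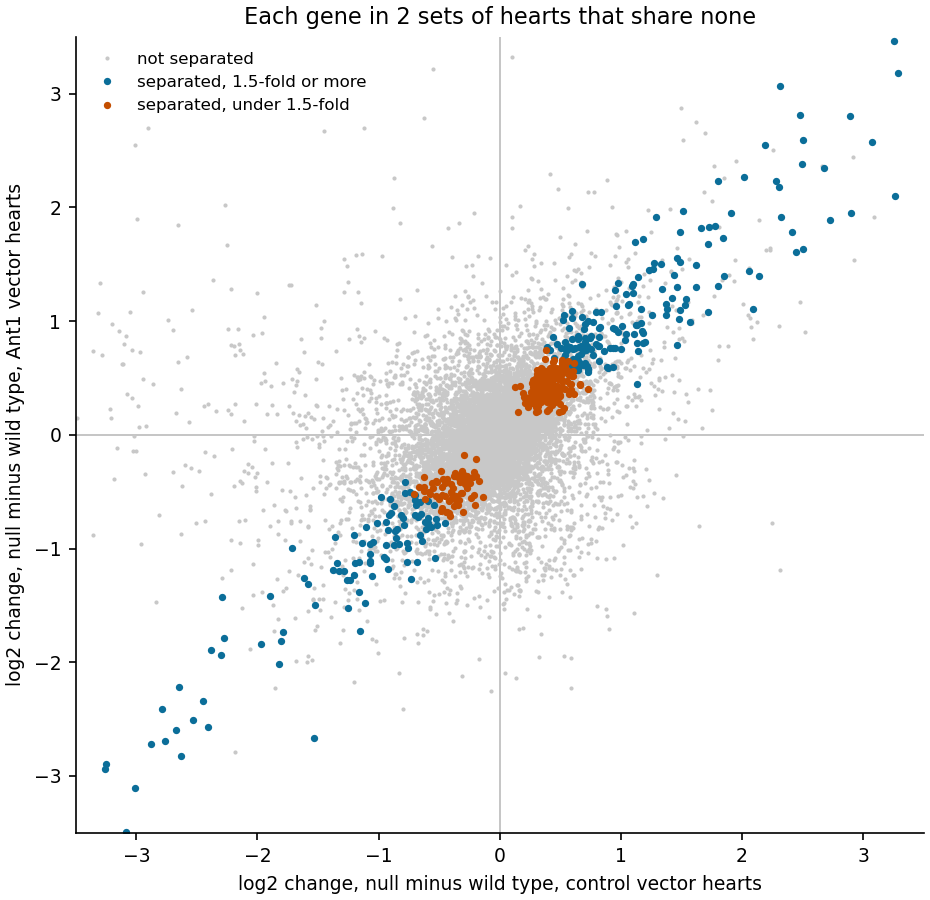
Log2 change from wild type to null hearts under the control vector (x axis) and the Ant1 vector (y axis), with each point a gene tested and the axes limited to 3.5 on either side of 0, which leaves out 111 genes. Separated genes were chosen on all hearts together, so their place in the 2 same-sign corners follows from the choice, and the grey points show the other genes.

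Cytosolic aminoacyl-tRNA synthetases, the enzymes that load amino acids onto tRNAs for protein synthesis, were higher in null hearts as a group. Of 23 tested members 16 were higher and 0 lower (69.6% higher, against 16.1% of all genes), and the median log2 change was 0.23, against -0.02 over all genes. The same numbers, 16 higher and 0 lower, were found with the table set as a covariate (10.9% of all genes higher there). Without the 3 hearts high in lung or liver markers 15 members were higher, against 2062 of 15171 genes tested. The median over members, taken in each heart relative to the wild type mean as log2 of CPM plus 0.5, ran from -0.07 to 0.03 in wild type and from 0.15 to 0.32 in null hearts. All 15 null hearts lay above all wild type hearts in this median.

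Single synthetase genes moved by small steps, of which 4 were separated. Nars, which loads asparagine, was at 87.6 to 106 CPM (median 91.3) in wild type and 113 to 163.7 CPM (median 132.8) in null hearts, 1.42-fold higher (log2 difference 0.50 ± 0.06, SE; edgeR adjusted p = 7.31e-07). Sars, which loads serine, was at 94.9 to 106 CPM and 115 to 148 CPM, 1.37-fold higher, and Aars, which loads alanine, at 61.7 to 82.6 CPM and 89.5 to 138 CPM, 1.53-fold higher. Nars, Sars and Aars were separated, while Eprs, which loads glutamate and proline, rose 1.39-fold with overlap, 81.9 to 113 CPM against 92.5 to 178 CPM. Members that passed changed by 0.14 to 0.61 on the log2 scale.

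The stress factor ATF4 and its partners are known to act on synthetase genes through C/EBP-ATF elements, so the letters TGATGNAA were searched on both strands of the 250 bases before the start site (RefSeq, GRCm38.p6). Of the 23 tested members 15 had an entry in the promoter table, and 3 of the 15 (20%) held the motif, against 3.53% of the 27025 genes in the table. The motif was as frequent in the list of the integrated stress response, with 5 of 23 promoters (21.7%), Asns among them, and was held by 1.77% of separated higher genes. The windows of 2 of them that rose are shown with the match in capitals, read here as its reverse complement TTNCATCA, the first from chr8:111033700-111033767 and the second from chr6:55037941-55038000, both on the + strand:
Aars: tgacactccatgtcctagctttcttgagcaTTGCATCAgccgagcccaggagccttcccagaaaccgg
Gars: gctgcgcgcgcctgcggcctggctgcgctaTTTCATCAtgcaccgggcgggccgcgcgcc
The Aars window precedes the start site of the table's first transcript and lies within the span of the gene as annotated (111027778 to 111055569), since another model starts further upstream. A match of these letters is a description of the sequence, not a binding site.

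Other genes of the integrated stress response, the pathway in which ATF4 acts, did not move as a group. Of 26 tested members 6 were higher and 5 lower, with a median log2 change of -0.12. Asns, the asparagine synthetase gene, was lower in null hearts, at 0.826 to 1.47 CPM against 1.43 to 2.77 CPM (1.77-fold; edgeR adjusted p = 7.93e-05), and so were the serine and cysteine synthesis genes Psat1 (1.53-fold) and Cth (1.68-fold). Aldh18a1, which makes proline, rose 1.35-fold. Gdf15, a hormone secreted by stressed tissue, was at 2 to 6.39 CPM in wild type and 4.97 to 50.4 CPM in null hearts. Its null groups differed (edgeR adjusted p = 0.0365), with log2 differences from wild type of 0.37 in null hearts without ND6 under the control vector and 2.04 to 3.23 in the other null groups. Null heart 27, without ND6 and under the Ant1 vector, also lay within the wild type range at 5.29 CPM. Hearts 20, 21 and 22 of its group held 24.7 to 42.9 CPM.

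Chaperones of the endoplasmic reticulum (ER), which fold secreted and membrane proteins, were lower in null hearts as a group. Of 20 tested members 16 were lower and 0 higher (80% lower, against 15.3% of all genes), with a median log2 change of -0.33. Pdia6, a protein disulfide isomerase, was at 51.6 to 71.1 CPM (median 54.6) in wild type and 29.6 to 52.6 CPM (median 36.3) in null hearts, 1.54-fold lower (edgeR adjusted p = 2.66e-06). The 2 ranges overlapped slightly. Canx, the membrane lectin chaperone calnexin, fell by 0.26 on the log2 scale, from 219 to 258 CPM to 180 to 224 CPM, and Sdf2l1 fell 1.77-fold. Calr, the soluble partner of calnexin, stood at 492 to 577 CPM in wild type and 2.43 to 4.58 CPM in null hearts. It lies on chromosome 8 with Slc25a4 and is described with that chromosome below.

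This group held less well than the synthetases when the table set was a covariate. With the table set as a covariate 3 of the 20 members passed as lower (9.23% of all genes lower there), namely Calr, Pdia6 and Herpud1, and the median was -0.18. Without the 3 hearts high in lung or liver markers 14 members were lower, against 1943 of 15171 genes tested. Under the Ant1 vector 14 members were lower with a median of -0.41, and under the control vector 7 with a median of -0.24. The median over members ran from -0.20 to 0.20 in single wild type hearts and from -0.50 to -0.05 in null hearts, and 10 of 15 null hearts lay below every wild type heart. The covariate fit takes the genotype difference from the table sets that hold both genotypes, and so from few of the null hearts. Wild type heart 70, the lowest at -0.20, and null heart 20 under the Ant1 vector, the highest at -0.05, are both in those sets. What the library table contributes to the fall was not tested beyond this covariate fit, nor apart from which hearts carry it.

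ER chaperone genes are known targets of ATF6, which acts through the ER stress response element, CCAAT and CCACG with 9 bases of any kind between them. Of the 20 members 17 had a promoter entry, and 7 of the 17 (41.2%) held this exact arrangement on either strand within 250 bases before the start, against 0.122% of all genes in the table. It was held by 1 of 130 separated lower genes with an entry (0.769%). Whether the element bears on the fall was not tested. The windows of 5 members that fell are printed with the element in capitals, to show its fixed spacing beside unlike flanks:
Hspa5: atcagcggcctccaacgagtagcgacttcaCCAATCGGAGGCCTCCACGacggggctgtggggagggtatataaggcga
Canx: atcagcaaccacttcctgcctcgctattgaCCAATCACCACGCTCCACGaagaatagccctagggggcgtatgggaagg
Hsp90b1: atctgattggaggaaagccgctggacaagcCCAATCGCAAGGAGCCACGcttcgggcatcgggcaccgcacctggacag
Pdia6: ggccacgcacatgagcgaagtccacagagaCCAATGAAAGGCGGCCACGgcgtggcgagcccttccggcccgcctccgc
Dnajc3: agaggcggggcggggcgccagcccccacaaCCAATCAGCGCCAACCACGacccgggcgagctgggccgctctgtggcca
Hsp90b1 holds a further match on the other strand. In this order the windows come from chr2:34771995-34772073 (+), chr11:50325770-50325848 (-), chr10:86705608-86705686 (-), chr12:17266461-17266539 (+) and chr14:118937797-118937875 (+). Hspa5, the ER Hsp70, was 1.24-fold lower in null hearts, Hsp90b1, the ER Hsp90, 1.27-fold and Dnajc3, a co-chaperone of Hspa5, 1.27-fold, each without passing under the table set covariate (edgeR adjusted p = 0.374, 0.175 and 0.143).

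**Figure D3:**
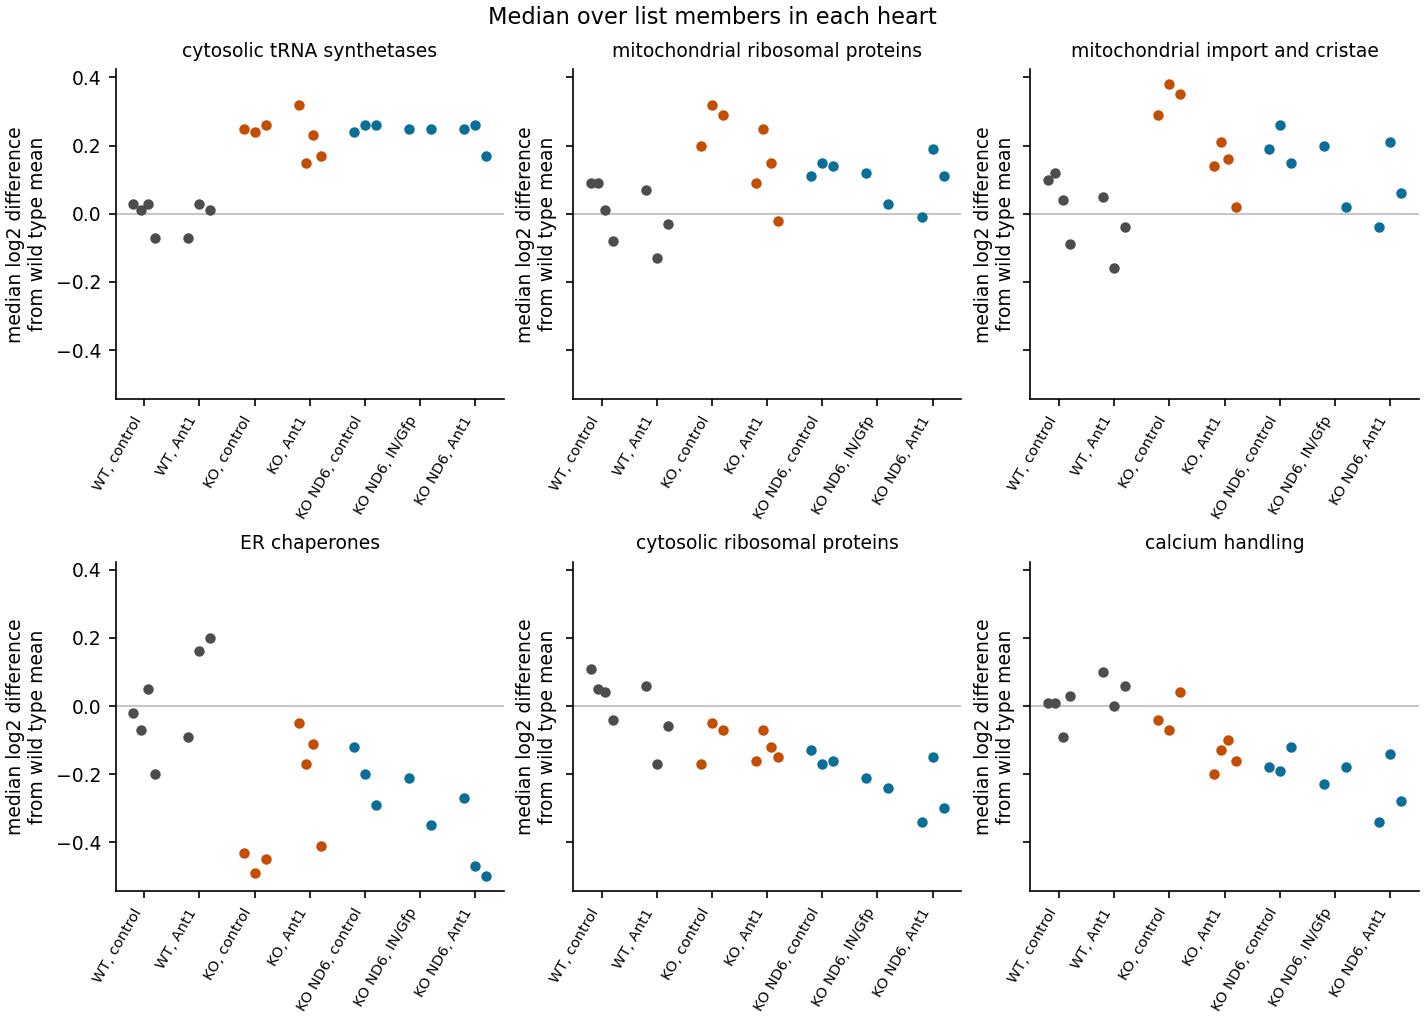
Median log2 difference from the wild type mean (y axis) over the tested members of 6 gene lists in each heart, by genotype and vector (x axis, names as in the plot of single genes). For the tRNA synthetases the null hearts lie at 0.15 to 0.32 and the wild type hearts at -0.07 to 0.03, while for the ER chaperones null hearts at -0.50 to -0.05 and wild type hearts at -0.20 to 0.20 overlap.

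Genes that build and feed the mitochondrial protein synthesis machinery were more often higher than lower. Of 70 mitochondrial ribosomal protein genes 31 were higher and 1 lower, with a median log2 change of 0.15, and with the table set as a covariate 20 were higher and 0 lower with the same median. Without the 3 hearts high in lung or liver markers 23 were higher, against 2062 of 15171 genes tested. Mrps23, a small subunit protein, was at 314 to 400 CPM (median 366) in wild type and 432 to 609 CPM (median 521) in null hearts, 1.47-fold higher (edgeR adjusted p = 1.29e-07). Mrpl41 of the large subunit was at 44 to 57.8 CPM and 62.6 to 81.0 CPM, 1.35-fold higher, and both genes were separated. The median over members overlapped between single hearts, -0.13 to 0.09 in wild type and -0.02 to 0.32 in null hearts, highest in null heart 36 without ND6 under the control vector.

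Of 56 ribosomal proteins of the cytosol in the list the panel measures 14, and of these 0 were higher and 7 lower, with a median of -0.20. Single hearts overlapped, with medians over members of -0.17 to 0.11 in wild type and -0.34 to -0.05 in null hearts, and 4 of 15 null hearts lay below every wild type heart. Rps21 fell 1.38-fold, from 522 to 818 CPM to 325 to 641 CPM, and Rpl8 1.24-fold. With the table set as a covariate 5 of the 14 were lower.

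Of 25 genes of mitochondrial import and cristae 11 were higher and 0 lower, 10 and 0 with the table set as a covariate. The median over members overlapped between single hearts, -0.16 to 0.12 in wild type and -0.04 to 0.38 in null hearts, with 11 of 15 null hearts above every wild type heart. Tomm22, a receptor of the outer membrane pore, was at 30.3 to 39.9 CPM in wild type and 44.3 to 62.0 CPM in null hearts (1.46-fold; edgeR adjusted p = 1.61e-06), and Timm44, which tethers the import motor, rose 1.27-fold. Among the 11 fusion and fission genes 6 were higher and 0 lower. Opa1, which fuses inner membranes, was at 209 to 260 CPM in wild type and 268 to 327 CPM in null hearts, 1.29-fold higher, and its 5 null groups lay at log2 differences of 0.29 to 0.46.

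Genes that copy and transcribe mitochondrial DNA were higher in 7 of 17 cases and lower in 1 (41.2% higher, against 16.1% of all genes). Mitochondrial chaperones and proteases held 8 higher and 3 lower genes of 20 (40% higher). Among 13 genes of mitophagy, the removal of mitochondria by autophagy, 6 were higher (46.2%) and 2 lower. With the table set as a covariate these numbers were 7 and 0, 6 and 0, and 4 and 2. They count RNA changes of these genes and do not measure mitochondrial transcripts or turnover. Polrmt, the mitochondrial RNA polymerase, was at 17.9 to 22.0 CPM in wild type and 26.1 to 51.3 CPM in null hearts, 1.72-fold higher, and Polg, the mitochondrial DNA polymerase, rose by 0.27 on the log2 scale. The proteases Afg3l2 and Lonp1, which remove damaged mitochondrial proteins, rose 1.34-fold and 1.27-fold. Optn, a receptor that links damaged mitochondria to autophagosomes, was at 88.8 to 144 CPM and 187 to 290 CPM, 2.24-fold higher. Pink1, the kinase that marks such mitochondria, was separated in the other direction, at 572 to 671 CPM and 397 to 562 CPM (1.27-fold lower), and Bnip3 fell 1.58-fold. Of 25 autophagy and lysosome genes 10 were higher and 4 lower. Lamp1, a lysosomal membrane protein, rose 1.32-fold while its relative Lamp2 fell by 0.32 on the log2 scale.

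Subunits of the respiratory chain moved little. Of 31 complex I subunits 7 were higher and 0 lower with a median log2 change of 0.07, and of 36 genes of complexes II to V 8 were higher and 3 lower with a median of 0.05. With the table set as a covariate those numbers were 7 and 0, and 2 and 0. Ndufb7 rose by 0.32 on the log2 scale, from 1178 to 1564 CPM to 1389 to 1971 CPM. Nnt, the transhydrogenase gene in which mouse strains differ, was at 628 to 784.5 CPM and 579.2 to 851.5 CPM and did not pass (edgeR adjusted p = 0.269).

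Pdhb, a catalytic subunit of pyruvate dehydrogenase, was at 547 to 768 CPM (median 660) in wild type and 802 to 1085 CPM (median 961) in null hearts, a log2 difference of 0.59 ± 0.06 (SE; edgeR adjusted p = 3.55e-08). Pdhx, which holds the complex together, rose 1.66-fold and Dlat 1.34-fold, while Dld, which the complex shares with other enzymes, was at 1249 to 1571 CPM and 1223 to 1789 CPM and did not pass (edgeR adjusted p = 0.453). Ldha, which turns pyruvate into lactate, was at 386 to 507 CPM and 257 to 403 CPM, 1.31-fold lower, while Ldhb, the other main lactate dehydrogenase gene of the heart, rose 1.23-fold, from 543 to 689 CPM to 639 to 993 CPM. Slc16a1, a lactate carrier, was at 465 to 590 CPM and 318 to 459 CPM, 1.28-fold lower. In the lists, 7 of 25 genes for pyruvate oxidation and the TCA cycle were higher and 2 lower, and 10 of 23 genes of glycolysis and glycogen were higher and 4 lower. Ugp2, which makes the sugar donor for glycogen, was at 226 to 353 CPM and 445 to 816 CPM, 1.96-fold higher, beside the rise of Gbe1.

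Phosphate transfer and other fuels changed in part. Of 12 genes of creatine and adenylate kinases 6 were higher and 2 lower. Slc6a8, the creatine transporter, was at 267 to 302 CPM in wild type and 328 to 504 CPM in null hearts, 1.48-fold higher, and Ckm, the muscle creatine kinase, rose 1.56-fold, from 458 to 507 CPM to 480 to 973 CPM. Ckm is also 1 of 6 skeletal muscle markers, which are given with the cell types below. In ketone and branched-chain amino acid use 3 of 20 genes were higher and 6 lower. Bckdhb, a subunit of the enzyme that breaks down branched-chain keto acids, fell 1.35-fold, and Ppm1k, the phosphatase that activates that enzyme, 1.79-fold, and both were separated. Fatty acid genes split, with 5 of 27 higher and 7 lower. Of 40 other SLC25 carriers 9 were higher and 3 lower. Slc25a13, an aspartate-glutamate carrier, was at 108 to 118 CPM in wild type and 131 to 172 CPM in null hearts, 1.33-fold higher.

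**Figure D4:**
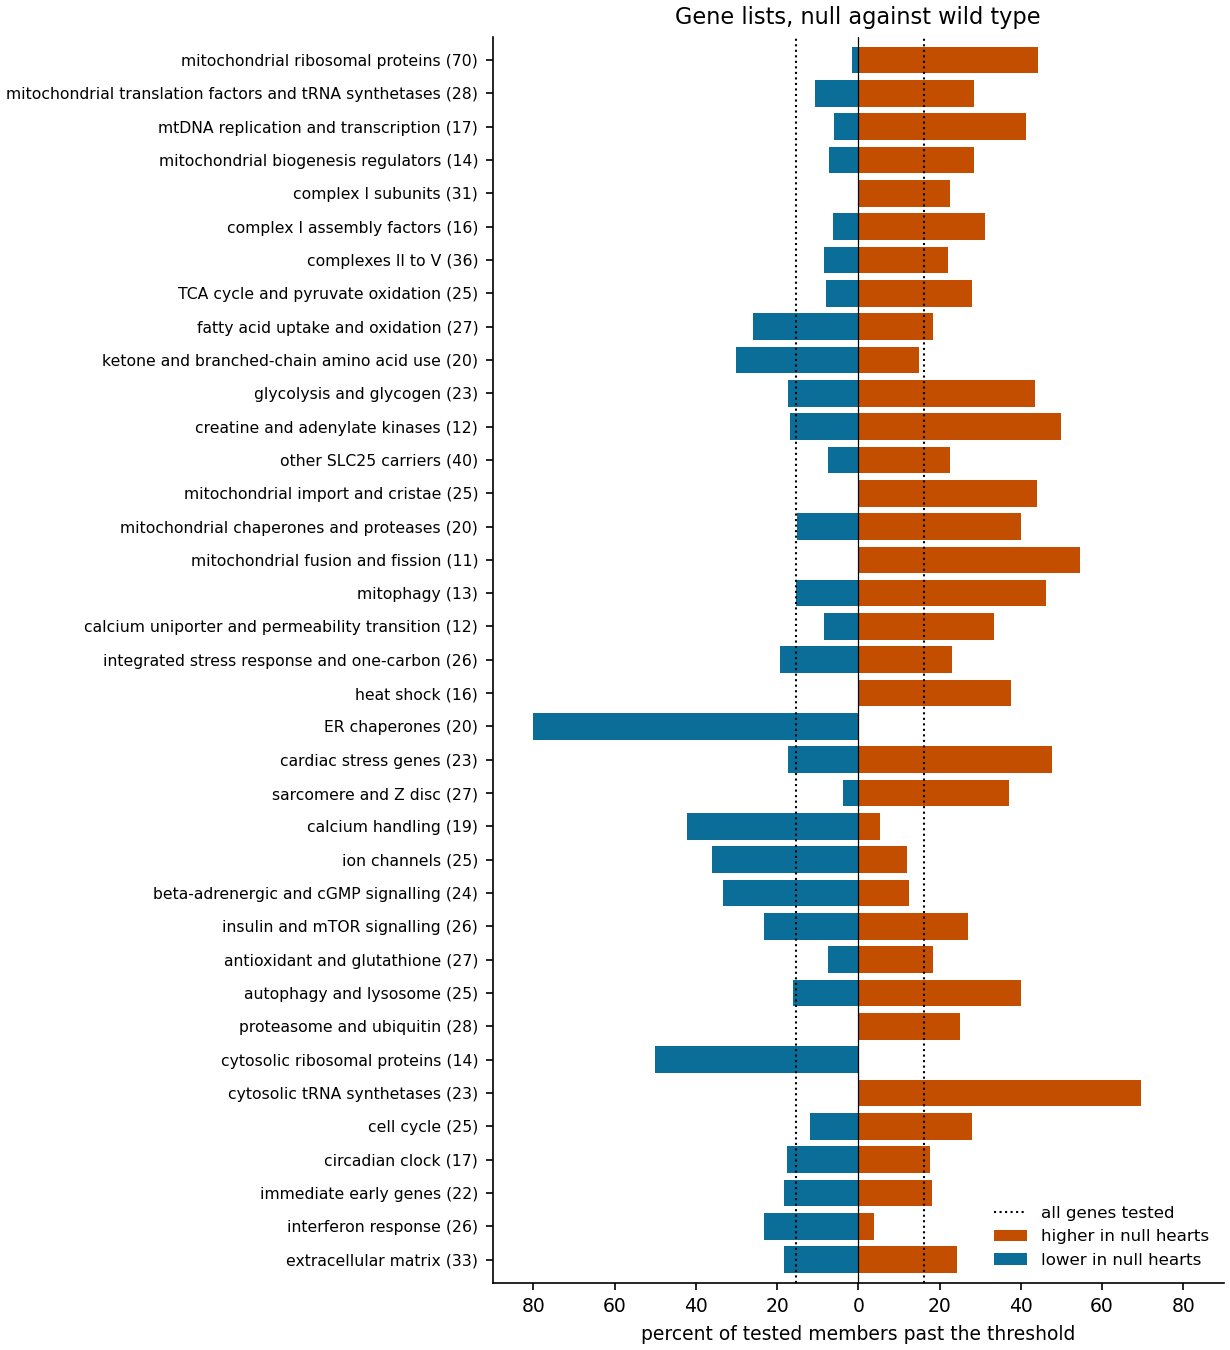
Percent of the tested members of each gene list that passed the threshold as higher (right) or lower (left) in null hearts, with the number of tested members in brackets and dotted lines at the 16.1% and 15.3% of all genes tested. The longest bars are the ER chaperones on the left (80%) and the cytosolic tRNA synthetases on the right (69.6%).

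Several genes of cardiac load and of the heat shock list rose in null hearts. Acta1, the skeletal actin that strained heart muscle makes again, was at 90.8 to 201 CPM (median 170) in wild type and 321 to 983 CPM (median 608) in null hearts, 4.11-fold higher (edgeR adjusted p = 4.3e-06). Nppb, a natriuretic peptide gene that load induces, ran from 328 to 628 CPM and from 711 to 2331 CPM, 3.42-fold higher, and the sarcomere stress gene Ankrd1 from 866 to 1597 CPM and from 2250 to 4403 CPM, 2.36-fold higher. All 3 were separated, and in the list of cardiac stress genes 11 of 23 were higher and 4 lower. Among the lower was Fhl2, at 1660 to 2377 CPM in wild type and 845 to 1897 CPM in null hearts (log2 difference -0.82; edgeR adjusted p = 3.58e-09). Of 16 heat shock genes 6 were higher and 0 lower. Cryab, the small heat shock protein of muscle, was at 1924 to 2268 CPM and 2301 to 3206 CPM, 1.41-fold higher with every null heart above every wild type heart, and Hspb6 rose 1.39-fold.

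Calcium handling genes were more often lower, with 1 of 19 higher and 8 lower and a median of -0.16. Casq1, a calcium buffer of skeletal muscle's sarcoplasmic reticulum, was at 8.73 to 18.2 CPM in wild type and 1.54 to 4.08 CPM in null hearts, 5.83-fold lower. The calcium channel subunit gene Cacna2d1 fell 1.46-fold, from 273 to 363 CPM to 180 to 304 CPM. Atp2a2, the calcium pump, fell 1.17-fold with overlapping hearts. S100a1, which enhances calcium cycling, was the exception at 549 to 698 CPM and 797 to 1156 CPM, 1.57-fold higher and separated. The 8 lower genes include Sln, an inhibitor of the calcium pump that is also an atrial marker. With the table set as a covariate 2 of the 19 were lower, and with library totals as the only scaling 12. Among 25 ion channels 3 were higher, among them the sodium channel subunit gene Scn4b (2.35-fold), and 9 were lower, among them the T-type calcium channel gene Cacna1g (2.28-fold) and the potassium channel gene Kcnj2 (1.80-fold).

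Growth signalling held a few clear members. Mtor, the kinase of the growth pathway, was at 35.3 to 45.8 CPM in wild type and 56.7 to 74.5 CPM in null hearts, 1.58-fold higher, and the kinase gene Akt1 rose 1.39-fold. Foxo1, a transcription factor that Akt restrains, fell 1.38-fold. The list they belong to was nearly even, with 7 of 26 higher and 6 lower. Nos1, the neuronal nitric oxide synthase, was at 0.446 to 1.71 CPM and 5.50 to 14.5 CPM, 8.46-fold higher and separated, and Npr3, the clearance receptor of natriuretic peptides, fell 1.40-fold and was separated as well.

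Among separated genes of 1.5-fold or more, 108 were lower and the greater part higher. Outside chromosome 8 the naming rule gave Tmem116, at 16.0 to 25.5 CPM in wild type and 106 to 180.8 CPM in null hearts (7.28-fold), and Gnb3, a G protein beta subunit, at 9.44 to 14.8 and 40.7 to 75.5 CPM (4.71-fold). Ptgds, a prostaglandin D2 synthase, rose 2.58-fold from 688 to 913 CPM to 1516 to 2499 CPM. The lysosomal peptide transporter gene Abcb9 rose 2.87-fold and the RNA helicase gene Dhx37 2.45-fold. Sycp1, a protein of meiotic chromosomes, was at most at 0.159 CPM in wild type and at 15.5 to 22.5 CPM in null hearts. Among the falls, Egln3, an oxygen-sensing prolyl hydroxylase, went from 53.5 to 87.8 CPM to 8.87 to 17.2 CPM (5.93-fold). Cenpf, a centromere protein, fell 8.07-fold, LOC105246804 5.49-fold, 3632451O06Rik 4.21-fold, Maob, a mitochondrial monoamine oxidase, 1.98-fold and the ubiquitin ligase adaptor gene Klhl13 1.92-fold.

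The separated genes were unevenly spread over the chromosomes. On chromosome 8, which carries Slc25a4, 60 of 777 genes tested were separated (7.72%, against 3.51% of all genes), followed by chromosome 5 with 46 of 901 (5.11%) and chromosome 11 with 52 of 1207 (4.31%). In windows of 10 Mb the shares were 22.7% between 40 and 50 Mb of chromosome 8 (10 of 44 genes), 21.2% between 30 and 40 Mb (7 of 33) and 14.6% between 80 and 90 Mb (13 of 89). Calr lies in the last of these windows (84842088 to 84846931), and Zswim4, nearby at 84210942 to 84237042, stood at 13.3 to 24.4 CPM in wild type and 0.0661 to 0.512 CPM in null hearts. Mfhas1 (35587789 to 35679449) stood at 71.0 to 89.1 and 10.1 to 17.0 CPM, 5.67-fold lower. Calr was 167-fold lower, with log2 differences between -7.19 and -7.57 in the 5 null groups (edgeR adjusted p = 0.424 for a difference among them). Those of Mfhas1 ran from -2.28 to -2.69 (edgeR adjusted p = 0.0607). Each gene was read by 1 amplicon, so a change of the RNA and a change in how that amplicon reads cannot be told apart. This holds for Calr, Zswim4 and Mfhas1 and for the chromosome 5 genes named next.

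On chromosome 5, 12 of 115 genes between 120 and 130 Mb were separated (10.4%), 11 of them higher, among them Tmem116 (121452580 to 121518188), Abcb9 (124061857 to 124095955) and Dhx37 (125413747 to 125434139). Between 30 and 40 Mb of that chromosome 9.4% were separated, and in the first 10 Mb of chromosome 11 it was 10 of 79 (12.7%), all higher. Chromosome 13 also held windows above 10%, with 6 of 39 genes between 70 and 80 Mb (15.4%) and 6 of 58 between 40 and 50 Mb (10.3%), and on chromosome 12 it was 3 of 25 between 20 and 30 Mb (12%). The labels give no genotypes along these chromosomes, so whether the lines differ there by inheritance apart from the deletion is not known. What the lost Ant1 and any such differences contribute at these places cannot be told apart here. Of the genes described above, Aars, Acta1, Def8, Gdf15, Herpud1, Lamp1, Ndufb7, Plat and Timm44 lie on chromosome 8 too, at various distances from Slc25a4. Which genes described above lie in the named windows of chromosomes 5, 11, 12 and 13 is given only for Tmem116, Abcb9 and Dhx37. Without the chromosome 8 genes 4488 of 14643 genes passed.

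**Figure D5:**
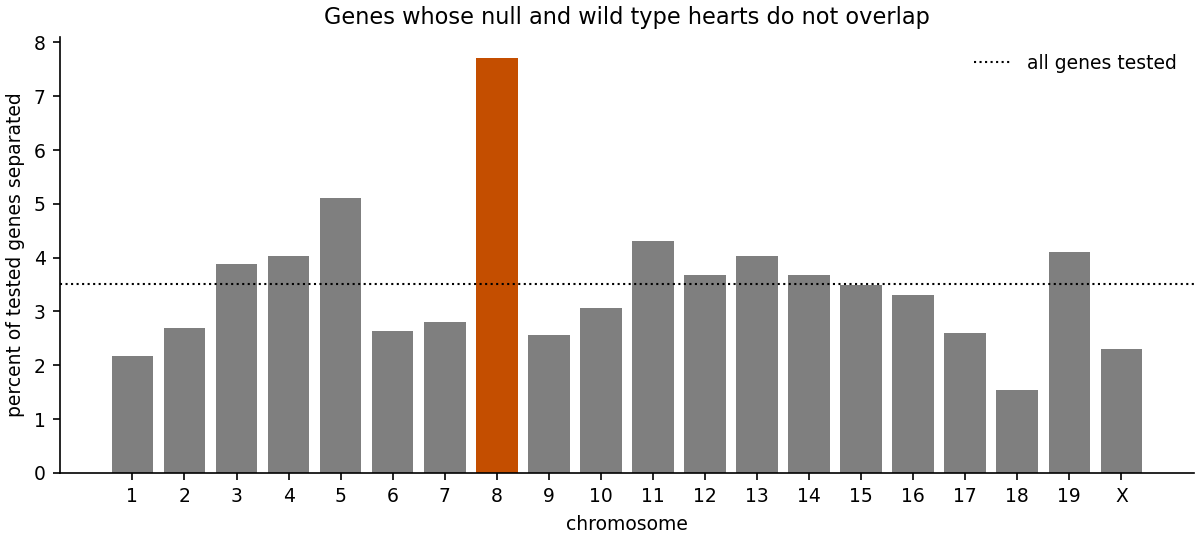
Percent of the genes tested on each chromosome (x axis) that were separated, with the dotted line at the 3.51% of all genes and chromosome Y left out for its few genes. Chromosome 8, coloured, has the highest bar at 7.72%, followed by chromosome 5 at 5.11%.

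Cell type markers moved beside these results. In bulk tissue fewer cells of a type and less RNA per cell cannot be told apart. The 12 fibroblast markers summed to 2715 to 3173 CPM (median 3007) in wild type and 2015 to 2702 CPM (median 2434) in null hearts, so that the groups did not overlap, and 6 of the 12 were lower and 0 higher. Dpt fell 1.33-fold and Vim 1.27-fold beside Gsn, and 3 of the 12 were lower with the table set as a covariate. The part of fibroblast RNA in the falls of Gsn, Wls, Tgfbr1 and Plat was not tested. Macrophage markers summed to 368 to 560 CPM and 307 to 528 CPM, with 1 of 10 tested markers higher and 4 lower, and C1qb, a complement gene of macrophages, fell 1.48-fold. The 6 atrial markers summed to 4222 to 6996 CPM in wild type and 1283 to 5650 CPM in null hearts, with 2 of them, Myl7 and Sln, lower. Null heart 5 stood apart at 1283 CPM, with Myl7 at 154 CPM against 485 to 1035 CPM in the other null hearts. The 6 skeletal muscle markers summed to 469 to 521 CPM (median 492) in wild type, with a median of 778 and a highest value of 1019 CPM in null hearts, most of it Ckm, and Ckm and Mylpf were higher. Null heart 37 was highest, with Myh1, a fast myosin, at 7.96 CPM against at most 0.309 CPM in any other heart. Without heart 5 4767 genes passed and without heart 37 5028. All 540 separated genes kept their call in both fits. They were chosen for not overlapping in any heart, so this could hardly fail and is no test of such tissue. The part of atrial or skeletal muscle RNA in the values of Nppa, Sln, Ckm and the calcium handling genes was not tested. Endothelial markers summed to 1409 to 1686 CPM and 1335 to 1744 CPM. Of the 11 tested, 4 were higher (36.4%, against 16.1% of all genes) and 2 lower. With the table set as a covariate 3 were higher and 0 lower. Ddx3y, on the Y chromosome, was at 196 to 242 CPM and 200 to 273 CPM and did not pass (edgeR adjusted p = 0.365).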

How the data were processed

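The authors deposited raw read counts per amplicon, made with genome build mm10 per the submitters' processing notes. How reads were aligned, counted and filtered is not stated in the labels. Of 115 samples, 112 are bulk libraries in 14 tables, and 3 samples of single nuclei are not used here. Symbols turned into dates were restored for 27 amplicons. Libraries with the same title number, genotype and title code were summed to 1 heart (110 libraries, 22 hearts), and 2 wild type libraries (80a and 80b) were left out because their vector label and title code differ. Positions come from the RefSeq table of GRCm38.p6, which matched 22654 of 23930 amplicons by symbol, and promoter sequences from the RefSeq table of the same build, with the first listed start site of each gene.

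Counts were fitted in edgeR 4.0.16 (R 4.3.3) with filterByExpr by group, TMM scaling (factors 0.959 to 1.058), 7 groups in 1 fit and the robust quasi-likelihood F-test. The contrast was the mean of the 5 null groups minus the mean of the 2 wild type groups, and p values were adjusted over 15403 genes by Benjamini-Hochberg. The median log2 change of all genes was -0.02, and -0.05 with library totals only. CPM uses TMM-scaled totals. Alternatives were 17 other settings, DESeq2 1.42.0 among them, and leaving out each of the 22 hearts. Xist, under the count filter, served only as the covariate of an alternative.

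Named genes followed a rule: of separated genes under 1.5-fold with 10 CPM or more in both genotypes the 10 rises and 10 falls with the smallest adjusted p, of those of 1.5-fold or more outside chromosome 8 the 6 rises and 6 falls, on chromosome 8 the 3 with the smallest adjusted p, of each gene list up to 4 members past the threshold, and 9 genes always. Herpud1, Hspa5, Hsp90b1, Dnajc3, Gars, Ldha, Ldhb, Dld and Myh1 lie outside it and were chosen after their values were seen. Members and lists were chosen with earlier results of these data known. The dose, 2.5e+11 vector genomes, is from the labels.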

Additional observations from a re-analysis of the deposited data

Results flagged for a closer look

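In groups of 4 to 10 hearts, 1 heart stood far from the others for 5 of the genes named outside the lists, among 129 groups examined, where chance flags about 1 in 20, so the number of flags is no higher than chance gives. Wild type heart 70, the heart with the most lung marker RNA, was high for Wls (140 CPM, the other wild type hearts 106 to 121), Zswim4 (24.4 CPM, the others 13.3 to 16.6) and, among control vector hearts, Tgfbr1 (21.8 CPM, the others 18.2 to 18.6). Wild type heart 23 was high for Cenpf (42.4 CPM, the others 18.7 to 28.3), and wild type heart 24 was low for Ddx3y among control vector hearts (228 CPM, the others 240 to 242).

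For 16 genes the change from wild type to null hearts differed between the vectors (edgeR interaction, adjusted p from 6.91e-05 to 0.0499). Slc25a4 was 1 of them, with a difference of -7.13 on the log2 scale, control vector minus Ant1 vector. Id1, an inhibitor of differentiation factors, had log2 changes of -0.35 under the control vector and 0.57 under the Ant1 vector, a difference of -0.92. Differences below 0 were also found for Tat (-2.89), Fam117b (-1.08), Eln (-0.98), Sgk1 (-0.91), Ptprd (-0.73), Frmd4b (-0.72) and Mamdc4 (-0.64). Differences above 0 were found for Cela1 (1.80), Pf4 (0.83), Slc38a9 (0.83), Hdhd3 (0.69), Cse1l (0.61), Hspb7 (0.55) and Prkaa2 (0.47). Leaving out 1 heart left between 1 and 29 such genes.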

How the results depend on the processing

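No paired analysis was possible because null and wild type hearts share no title number. The number of genes past the threshold, 4825, became 3095 with the table set as a covariate, 3106 with control vector hearts only, 1824 with Ant1 vector hearts only and 3035 with null hearts without ND6 P25L only. Genes higher numbered 918 with Ant1 vector hearts only. Genes lower numbered 1421 with the table set as a covariate, 1567 with only the 12 hearts in table sets with both genotypes, 1430 with control vector hearts only, 906 with Ant1 vector hearts only and 1325 with null hearts without ND6 only. Fewer hearts make it easier not to overlap, and separated genes numbered 1409 with the 12 hearts, 1926 with control vector hearts, 1459 with Ant1 vector hearts and 1231 with ND6 null hearts only. Leaving out 1 heart in turn left 4000 to 5158 genes past the threshold in the comparison of all hearts. It moved the Ant1 vector count, 2806, between 1574 (without wild type heart 83) and 3004, with 1681 without wild type heart 80. It moved the count of genes that differ between the vectors, 16, between 1 and 29, and that of genes that differ among null groups, 1229, between 559 and 1925, lowest without null heart 36 (564 without null heart 38, 714 without null heart 8) and highest without null heart 27. Of the 540 separated genes, 532 kept their call and direction with the table set as a covariate, 530 with the 12 hearts, 491 with Ant1 vector hearts only and all 540 in each fit that left out 1 heart. Separated genes were chosen for not overlapping in any heart, so leaving out 1 heart can hardly undo a call. Among 215 named genes 124 kept their call and direction under every setting, and 3 changed direction: Gbp4 (-0.16 on the log2 scale with null hearts without ND6 only), Rrm2b and Tmem126b (each 0.04 with control vector hearts only). The cause of these shifts was not tested, beyond the smaller number of hearts in the settings that leave hearts out. The setting without the 3 hearts high in lung or liver markers was chosen after seeing the data, as were the counts of list members with library totals only.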
